A study of Sus scrofa with 14 samples.

Results

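The genes described here belong to the integrated stress response, the signalling route by which cells slow protein synthesis and switch on amino acid supply, and to the synthesis of serine that the route controls. The 10 genes were chosen by name (ATF4, DDIT3, DDIT4, TRIB3, CHAC1, ASNS, PSAT1, PHGDH, SHMT2 and SESN2), with no threshold on a measured value, and all 10 were found among the 15031 genes of the expression table. Expression was measured by RNA sequencing of poly-A RNA from cultured pig cells and is given as TPM, a transcript level that is corrected for gene length and scaled to the same total in each library. pgEpiSCs are pregastrulation epiblast stem cells, a pluripotent pig cell line kept undifferentiated on mouse embryonic fibroblast feeder layers in 3i/LAF medium, which holds CHIR99021, IWR-1-endo, WH-4-023, LIF, activin A and FGF2. They were sampled without treatment on day 0 as pgEpiSCs-Low (3 libraries) and pgEpiSCs-high (3 libraries), a low-passage and a high-passage culture. pgEpiSCs-MPCs (2 libraries, day 8) and pgEpiSCs-MCs (3 libraries, day 44) were derived from pgEpiSCs by myogenic differentiation in serum-free media. The series of media began with CHIR99021 and SB431542 and went on with inhibitors and growth factors that included LDN193189 and FGF2. HGF and IGF-1 followed, and the series ended in N2 medium. The labels do not say in which medium each group was collected, though the authors describe pgEpiSCs-MCs as cells taken after N2 treatment. MPC-Dif (3 libraries, day 4) came from muscle stem cells isolated from pig muscle. These were grown with fetal bovine serum, FGF2 and added nonessential amino acids and then differentiated in DMEM with horse serum. All groups were wild type. By the protocols in the labels, the media used from pgEpiSCs through to pgEpiSCs-MCs all held added nonessential amino acids. This mix includes serine, glycine and asparagine. The differentiation medium of MPC-Dif listed no such addition, unlike the growth medium before it. Amino acids that the base media and serum themselves hold are not counted here. Medium, culture time and cell origin change together between these groups and cannot be told apart.

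In the integrated stress response, kinases that sense unfolded proteins, amino acid shortage, double-stranded RNA or heme shortage phosphorylate the initiation factor eIF2alpha, which lowers most translation and raises translation of the ATF4 mRNA. ATF4 then binds C/EBP-ATF response elements and switches on genes for amino acid synthesis, amino acid uptake, redox balance and feedback. These roles are known mainly from human and mouse cells. Because ATF4 protein is set largely by translation, an ATF4 mRNA level does not measure ATF4 activity. Serine is made from the glycolytic intermediate 3-phosphoglycerate by PHGDH, PSAT1 and PSPH in turn, and SHMT2 splits serine in mitochondria into glycine and a one-carbon unit. The growth of muscle cells needs serine, glycine and one-carbon units for proteins and nucleotides.

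The core of the element that ATF4 binds together with C/EBP proteins was searched, as TGATGNAA on either strand, in the 500 bases before and 50 bases after the annotated start of each gene in the pig genome build Sscrofa11.1 (RefSeq). The letters were found in 6.04% of 19336 such windows of protein-coding genes and in 3 of the 10 windows described here, those of DDIT3, CHAC1 and PHGDH. The 19336 windows left out genes whose annotated start is incomplete, as that of CHAC1 is, so the sets are not fully alike. The narrower TGATGCAA, which is one form of the same letters, was in 1.29% of all windows and in those of DDIT3 and CHAC1. The stretches around the matches are shown because they show these letters as they stand in the pig genome. They are written 5′ to 3′ in the direction of the gene, and the capitals mark the match, which lay on the strand opposite to the gene in each case.
DDIT3 promoter: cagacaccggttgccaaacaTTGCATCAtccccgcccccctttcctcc
CHAC1 promoter: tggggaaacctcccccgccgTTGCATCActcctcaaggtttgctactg
PHGDH promoter: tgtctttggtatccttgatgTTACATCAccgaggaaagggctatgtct
The DDIT3 stretch lies at chr5:22790105-22790152 with its match starting at -265, the CHAC1 stretch at chr1:130363470-130363517 with its match at -165, and the PHGDH stretch at chr4:101478490-101478537 with its match at -373, where negative positions count bases upstream of the gene start. The annotation marks the start of CHAC1 as incomplete, so its distance may change with a fuller gene model. A match in these letters is a description of the sequence and not a measured site.

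Differences were tested with limma on log2(TPM + 1), and a gene is called higher or lower here where its p, adjusted over the 14957 genes tested, was under 0.05. Where pgEpiSCs are named without a culture, both cultures entered with equal weight. Most of the 10 genes had their lowest level in pgEpiSCs-MPCs and most had their highest in MPC-Dif, but these were not the same genes. Only TRIB3, PSAT1, PHGDH and SHMT2 did both. For DDIT4 and PHGDH the pgEpiSCs-MPCs libraries overlapped the next group. The mean TPM was lowest in pgEpiSCs-MPCs for 7 genes (DDIT4, TRIB3, CHAC1, ASNS, PSAT1, PHGDH and SHMT2) and highest in MPC-Dif for 7 genes (ATF4, DDIT3, TRIB3, PSAT1, PHGDH, SHMT2 and SESN2). DDIT4 and CHAC1 were highest in pgEpiSCs-MCs, and ASNS was highest in pgEpiSCs-high. The largest span belonged to TRIB3, whose highest group mean was 136 times its lowest, and the smallest to PHGDH, with 1.74 times.

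**Figure D1:**
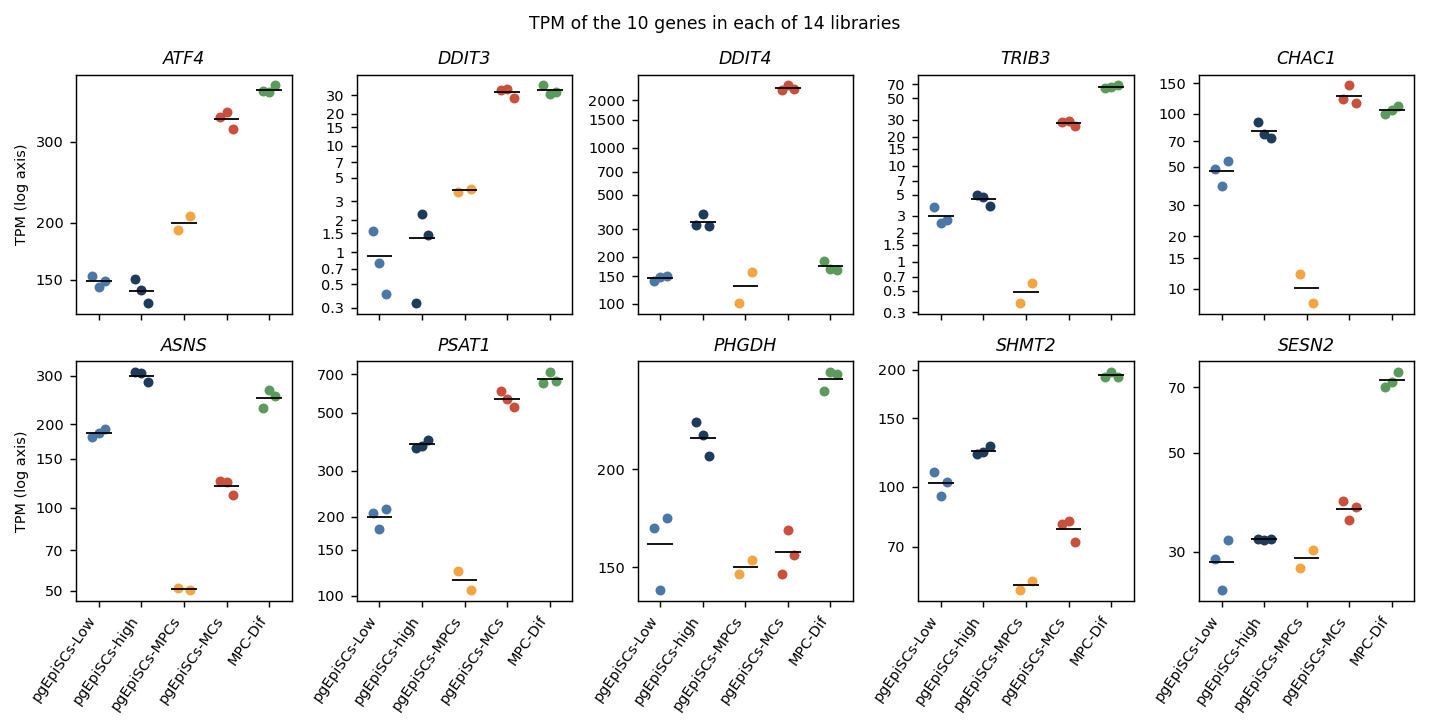
TPM (log axis, a separate scale in each panel) of the 10 genes in the 14 libraries of the 5 groups; each point is a library and each line the mean of its group. DDIT4 stands at 2317 to 2495 TPM in the 3 pgEpiSCs-MCs libraries and at most at 374 TPM in every other library, while TRIB3, CHAC1, ASNS, PSAT1 and SHMT2 reach their lowest values in the 2 pgEpiSCs-MPCs libraries.

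Facts of the libraries bear on all of these values. The 13 genes of the mitochondrial genome took 19.8 to 24.9% of all TPM in pgEpiSCs, 15.8 to 17.1% in pgEpiSCs-MPCs, 6.07 to 6.61% in pgEpiSCs-MCs and 6.74 to 7.10% in MPC-Dif, and a fall in their share raises the TPM of every other gene. Other scalings of the libraries were run beside the main one, namely median-of-ratios scaling, quantile normalization and TPM without the mitochondrial genes. Between 12150 and 13781 genes were above 0.5 TPM in a library, and sequencing depth is unknown because TPM does not keep it. The summed TPM of 7 fibroblast markers (all 7 in the table) was 35.6 to 73.7 in pgEpiSCs, 120.5 to 124 in pgEpiSCs-MPCs, 14650 to 15930 in pgEpiSCs-MCs and 24490 to 25430 in MPC-Dif. In pgEpiSCs-MCs the collagens COL1A1, COL1A2 and COL3A1 made up most of that sum, with means of 6077, 8213 and 898.5 TPM. DCN, LUM, PDGFRA and POSTN had means of 15.15, 28.64, 3.61 and 31.45 TPM there. In MPC-Dif these last markers had means of 2930, 599.9, 239.6 and 228.5 TPM. Of 9 markers of differentiated muscle, 8 were in the table, and they summed to 345 to 391 TPM in pgEpiSCs-MCs and 790.1 to 861 in MPC-Dif, with the muscle creatine kinase CKM at 6.67 TPM or less in every library. The 4 markers of muscle progenitors summed to 149 to 162 TPM in pgEpiSCs-MPCs, where MYF5 was at 0.133 and 0.303 TPM, and 167.5 to 194 TPM in pgEpiSCs-MCs. Of 6 neural markers 5 were in the table, and they summed to 217 to 285 TPM in pgEpiSCs, 1245 to 1300.0 in pgEpiSCs-MPCs, 1395 to 1527 in pgEpiSCs-MCs and 102 to 107 in MPC-Dif. ZIC1, which muscle precursors of the somite also express, gave 1048 and 1094 TPM of that sum in pgEpiSCs-MPCs and 738 to 812 TPM in pgEpiSCs-MCs, where the neuronal tubulin TUBB3 gave 529.8 to 600.4 TPM. The pluripotency marker NANOG was listed at 0 in pgEpiSCs-MPCs and MPC-Dif. Of 7 pluripotency markers 6 were in the table, and they summed to 160.1 to 199 TPM in pgEpiSCs-MPCs. There SOX2 gave 85.4 and 93.4 TPM and LIN28A 72.8 and 104.5. In pgEpiSCs-MCs the markers summed to 97.5 to 133 TPM, of which SOX2 gave 96.9 to 130. SOX2 was at 61.2 to 92.05 TPM in pgEpiSCs, so its level did not fall with the other pluripotency markers. In such bulk samples fewer cells of a type and less RNA per cell cannot be told apart, and the part of cell composition in the results below was not tested.

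ATF4, the transcription factor at the centre of the route, rose along the differentiation of pgEpiSCs and was higher still in MPC-Dif. The gene lies at chr5:8742964-8745752 on the minus strand. Its libraries read 145, 149.5 and 153 TPM in pgEpiSCs-Low, 133, 143 and 151 in pgEpiSCs-high, 193 and 207 in pgEpiSCs-MPCs, 319.6, 339 and 349 in pgEpiSCs-MCs and 385, 386 and 398 in MPC-Dif. The pgEpiSCs-Low and pgEpiSCs-high libraries overlapped, and every later group lay above the one before it with no overlap. Its mean was 2.31 times that of pgEpiSCs in pgEpiSCs-MCs and 2.68 times in MPC-Dif. The change on the log2(TPM + 1) scale, used for every log2 value here, was 0.45 (SE 0.053, adjusted p = 3.07e-06) from pgEpiSCs to pgEpiSCs-MPCs and 0.75 (SE 0.059, adjusted p = 5.16e-08) from pgEpiSCs-MPCs to pgEpiSCs-MCs. After quantile normalization the first of these was 0.14 with the call kept.

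DDIT3, which encodes the transcription factor CHOP and responds to ATF4, changed by a larger factor than ATF4. It lies at chr5:22785441-22789867 on the minus strand. DDIT3 read 0.405, 0.796 and 1.57 TPM in pgEpiSCs-Low, 0.329, 1.46 and 2.26 in pgEpiSCs-high, 3.72 and 3.96 in pgEpiSCs-MPCs, 28.1, 33.9 and 34.6 in pgEpiSCs-MCs and 31.0, 32.2 and 37.1 in MPC-Dif. The gene was scarce in pgEpiSCs, intermediate in pgEpiSCs-MPCs and highest in pgEpiSCs-MCs and MPC-Dif, whose libraries overlapped. Its mean in pgEpiSCs-MCs was 28.3 times that in pgEpiSCs, a log2 change of 4.03 (SE 0.23, adjusted p = 7.45e-10), and in MPC-Dif 29.4 times, a log2 change of 4.08 (SE 0.23, adjusted p = 5.04e-10). The step from pgEpiSCs to pgEpiSCs-MPCs was 1.26 (SE 0.27) with a pseudocount of 1 and 1.94 with one of 0.1. In the RefSeq annotation DDIT3 shares chr5:22785441-22785509 with MARS1, the gene of methionyl-tRNA synthetase on the other strand, and whether the counting used strand is not given in the sources used here. MARS1 was at 117 to 239.9 TPM over all libraries and lowest in pgEpiSCs-MCs, where DDIT3 was high.

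The upstream genes of the route were uneven. Among 6 genes of the eIF2alpha kinases and the phosphatase subunits that reverse them, 2 were higher and 2 lower in pgEpiSCs-MCs than in pgEpiSCs, and the same counts held for MPC-Dif against pgEpiSCs. Over all genes tested 50.8% were higher and 30.9% lower in pgEpiSCs-MCs, and 37.4% and 44.1% in MPC-Dif. Under each of the 3 other scalings the kinases and phosphatase subunits counted 2 higher and 4 lower in pgEpiSCs-MCs, and in MPC-Dif they counted 3 and 1 after median-of-ratios scaling and 2 and 4 without the mitochondrial genes. EIF2AK3, which encodes PERK, the kinase that senses unfolded proteins in the endoplasmic reticulum, read 7.03, 7.20 and 7.73 TPM in pgEpiSCs-Low, 15.1 and 16.7 in pgEpiSCs-MPCs, 27.1, 29.2 and 29.5 in pgEpiSCs-MCs and 51.4, 52.5 and 60.0 in MPC-Dif. PPP1R15A, or GADD34, the inducible phosphatase subunit that ends the response, read 15.8, 17.7 and 18.4 TPM in pgEpiSCs-Low, 8.17, 9.91 and 12.9 in pgEpiSCs-high, 43.0 and 43.2 in pgEpiSCs-MPCs, 89.1, 97.1 and 98.0 in pgEpiSCs-MCs and 120.2, 124 and 126 in MPC-Dif. Both rose from pgEpiSCs to pgEpiSCs-MPCs and again to pgEpiSCs-MCs, as ATF4 did, with log2 changes against pgEpiSCs of 1.77 and 2.74 in pgEpiSCs-MCs. EIF2AK2, which encodes the kinase PKR, fell by 1.16 in pgEpiSCs-MCs and by 1.36 in MPC-Dif, and EIF2AK4, which encodes GCN2, the sensor of amino acid shortage, had -0.04 and -0.05 and did not pass, though it was called lower in pgEpiSCs-MCs after median-of-ratios scaling, after quantile normalization and without the mitochondrial genes (-0.27, -0.35 and -0.32), and in MPC-Dif without the mitochondrial genes (-0.31). Of the 8 subunits of eIF2 and its exchange factor eIF2B, 7 were tested, and 6 of them were lower and 1 higher in each of the differentiated groups than in pgEpiSCs, beside 21.4% of all genes lower in pgEpiSCs-MPCs and the shares above in the others. EIF2S1, the eIF2alpha subunit itself, fell by 1.54 in pgEpiSCs-MCs, and EIF2B4 was the subunit that rose, a call that the same 3 settings did not keep in pgEpiSCs-MCs and that the first 2 of them did not keep in pgEpiSCs-MPCs (-0.05 in both).

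TRIB3, a pseudokinase that dampens ATF4 and CHOP, was nearly absent from pgEpiSCs-MPCs and highest in both muscle cell groups. TRIB3 is at chr17:34808273-34819592 on the minus strand. TRIB3 read 2.51, 2.70 and 3.69 TPM in pgEpiSCs-Low, 3.80, 4.76 and 4.98 in pgEpiSCs-high, 0.370 and 0.604 in pgEpiSCs-MPCs, 25.7, 28.3 and 29.2 in pgEpiSCs-MCs and 63.9, 66.3 and 68.3 in MPC-Dif. No 2 neighbouring groups overlapped. TRIB3 fell by 1.65 on the log2 scale from pgEpiSCs to pgEpiSCs-MPCs (SE 0.12, adjusted p = 3.19e-08), a step that was -2.69 with a pseudocount of 0.1, and rose by 4.27 from there to pgEpiSCs-MCs (SE 0.14, adjusted p = 5.56e-12). ATF4 and DDIT3 rose over the first of these steps while TRIB3 fell.

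CHAC1, an enzyme that breaks down glutathione and a gene that ATF4 and CHOP switch on, followed the same course. It lies at chr1:130360510-130363332 on the minus strand. CHAC1 read 39.0, 48.5 and 53.7 TPM in pgEpiSCs-Low, 72.9, 76.7 and 90.0 in pgEpiSCs-high, 8.27 and 12.1 in pgEpiSCs-MPCs, 115, 122 and 146 in pgEpiSCs-MCs and 99.5, 105 and 111 in MPC-Dif. The pgEpiSCs-MPCs libraries were below all others by a wide margin, and no neighbouring groups overlapped. CHAC1 fell by 2.49 into pgEpiSCs-MPCs (SE 0.14, adjusted p = 1.32e-09) and rose by 3.53 into pgEpiSCs-MCs (SE 0.16, adjusted p = 1.2e-10). Its difference between pgEpiSCs-MCs and MPC-Dif, 0.27 (SE 0.14, adjusted p = 0.0906), did not pass. Since CHAC1 was already at different levels in the pgEpiSCs cultures, its rise in pgEpiSCs-MCs was 1.42 against pgEpiSCs-Low and 0.67 against pgEpiSCs-high, both called.

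SESN2, a leucine sensor that restrains the growth kinase mTORC1, stayed within a narrow range in the pgEpiSCs lineage. SESN2 is at chr6:85321982-85348044 on the plus strand. SESN2 read 24.6, 28.9 and 31.9 TPM in pgEpiSCs-Low, 31.9, 31.9 and 32.1 in pgEpiSCs-high, 27.6 and 30.3 in pgEpiSCs-MPCs, 35.3, 37.7 and 38.9 in pgEpiSCs-MCs and 70.0, 71.9 and 75.6 in MPC-Dif. Only MPC-Dif stood far from the rest, at 2.40 times the pgEpiSCs mean (log2 1.24, SE 0.071, adjusted p = 5.08e-10). The rise in pgEpiSCs-MCs against pgEpiSCs, 0.30 (SE 0.071, adjusted p = 0.00135), was lost after median-of-ratios scaling (0.07, adjusted p = 0.328), without the mitochondrial genes (0.03, adjusted p = 0.708) and after quantile normalization, where it was -0.01 (adjusted p = 0.946).

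DDIT4, also called REDD1, an inhibitor of mTORC1 that low oxygen, glucocorticoids and ATF4 are known to induce, set pgEpiSCs-MCs apart. DDIT4 is at chr14:75117708-75119907 on the plus strand. DDIT4 read 139, 149.5 and 151 TPM in pgEpiSCs-Low, 316, 318 and 374 in pgEpiSCs-high, 101 and 161 in pgEpiSCs-MPCs, 2317, 2383 and 2495 in pgEpiSCs-MCs and 166, 167 and 189 in MPC-Dif. With these levels DDIT4 ranked 43 of 15031 genes in pgEpiSCs-MCs and 841 in MPC-Dif. Its mean in pgEpiSCs-MCs was 18.3 times that in pgEpiSCs-MPCs (log2 4.22, SE 0.14, adjusted p = 7.29e-12) and 13.8 times that in MPC-Dif (log2 3.78, SE 0.13, adjusted p = 2.07e-12). DDIT4 was the only one of the 10 genes called higher in pgEpiSCs-MCs than in MPC-Dif. CHAC1 also had a higher mean in pgEpiSCs-MCs, and its difference did not pass. The 2 pgEpiSCs-MPCs libraries differed from each other and overlapped pgEpiSCs-Low, and DDIT4 was lower in pgEpiSCs-MPCs against both pgEpiSCs cultures (-0.79, SE 0.13) and not against pgEpiSCs-Low alone (-0.20, adjusted p = 0.235).

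Genes that low oxygen is known to induce moved with DDIT4 in pgEpiSCs-MCs. Of 13 such genes, 12 were tested, and all 12 were higher in pgEpiSCs-MCs than in pgEpiSCs, beside 50.8% of all genes tested. Their median log2 change was 3.07 against 0.27 over all genes tested. Under each of the 3 other scalings 11 of the 12 were higher, and CA9 was then not called after median-of-ratios scaling or without the mitochondrial genes and called lower after quantile normalization (-0.26, adjusted p = 0.0144). In MPC-Dif 3 of the 12 were higher and 8 lower than in pgEpiSCs, beside 37.4% and 44.1% of all genes, with a median of -0.43 against -0.10. VEGFA, the vascular growth factor, read 80.8, 83.0 and 85.4 TPM in pgEpiSCs-Low, 44.4 and 58.2 in pgEpiSCs-MPCs, 1699, 1735 and 1764 in pgEpiSCs-MCs and 74.2, 74.2 and 83.4 in MPC-Dif. NDRG1, a gene of growth arrest and stress, had the largest log2 change of the list in pgEpiSCs-MCs, 7.15 (SE 0.096), and ADM, the vasodilator adrenomedullin, had 6.15 (SE 0.099). ADM had means of 480.4 TPM in MPC-Dif and 473 TPM in pgEpiSCs-MCs, and this difference did not pass (-0.02). BNIP3, a receptor for the removal of mitochondria, and PFKFB3, a driver of glycolysis, read 99.2 and 191 TPM and 18.3 and 34.4 TPM in the 2 pgEpiSCs-MPCs libraries. The pgEpiSCs-MPCs library with more DDIT4, replicate 2, also had more of each of the 12 genes except NDRG1. NDRG1 was at 11.2 TPM in replicate 1 and 10.9 TPM in replicate 2. This is a description of 2 libraries and was not tested. In pgEpiSCs-high against pgEpiSCs-Low 9 of the 12 were higher and 1, EGLN3, lower (-0.35), beside 8.36% and 15.7% of all genes. VEGFA (-0.13) and CA9 (-0.17) did not pass there. BNIP3, PFKFB3 and DDIT4 were higher there by 1.06, 0.99 and 1.19 on the log2 scale. The labels give the oxygen of the incubator for pgEpiSCs and not for the other groups, and the part of oxygen in the DDIT4 levels was not tested.

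**Figure D2:**
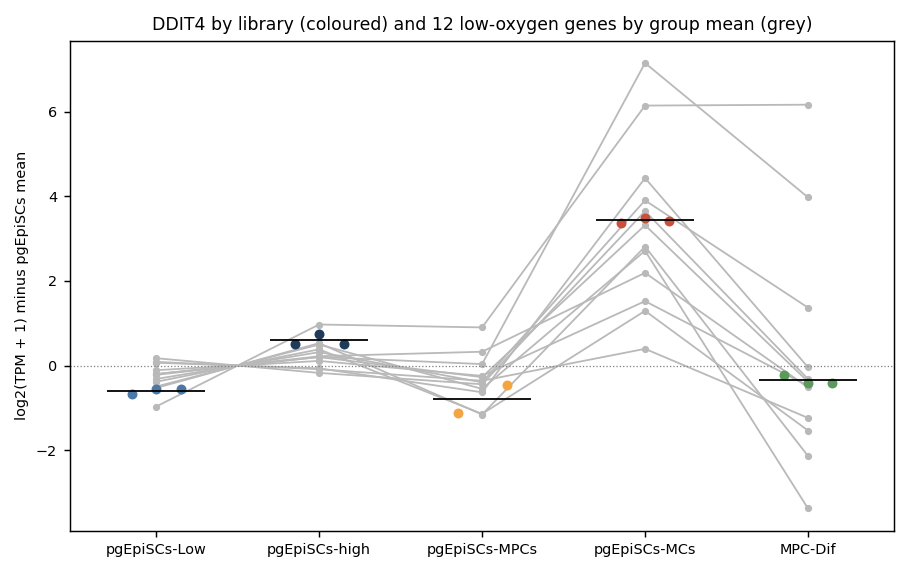
Level of DDIT4 in each library (coloured points, black line for the group mean) and the group means of 12 low-oxygen genes (grey, 1 line per gene), as log2(TPM + 1) minus the mean of pgEpiSCs, across the 5 groups. In pgEpiSCs-MCs all 12 grey means lie above 0, as DDIT4 does, and in MPC-Dif 9 of the 12 and DDIT4 lie below 0.

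ASNS, the enzyme that makes asparagine and a standard target of ATF4, did not follow ATF4. ASNS is at chr9:77318341-77336290 on the minus strand. ASNS read 179.8, 187 and 193 TPM in pgEpiSCs-Low, 285, 307 and 309 in pgEpiSCs-high, 50.2 and 51.3 in pgEpiSCs-MPCs, 111, 124 and 125 in pgEpiSCs-MCs and 228, 254 and 266 in MPC-Dif. All 5 groups were separate, with pgEpiSCs-high at the top and both differentiated groups of the pgEpiSCs lineage at the bottom. ASNS fell by 2.20 into pgEpiSCs-MPCs (SE 0.063, adjusted p = 1.13e-12), recovered by 1.22 into pgEpiSCs-MCs (SE 0.071, adjusted p = 2.1e-09) and remained 0.98 below pgEpiSCs there on the log2 scale (SE 0.055, adjusted p = 5.12e-10). MPC-Dif lay between the pgEpiSCs cultures, so its difference from pgEpiSCs depended on the control, with 0.07 (adjusted p = 0.23) against both, 0.42 against pgEpiSCs-Low (adjusted p = 2.92e-05) and -0.27 against pgEpiSCs-high (adjusted p = 0.00138). It also depended on scaling, since ASNS was higher after median-of-ratios scaling (0.20, adjusted p = 0.00561), lower without the mitochondrial genes (-0.20, adjusted p = 0.00293), -0.05 after quantile normalization (adjusted p = 0.421) and higher without MPC-Dif replicate 1 (0.14, adjusted p = 0.0367).

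PSAT1, the aminotransferase of the middle step of serine synthesis, differed more between its highest and lowest group than PHGDH and SHMT2 did. The gene lies at chr1:231142673-231172364 on the plus strand. PSAT1 read 180.4, 207 and 214 TPM in pgEpiSCs-Low, 367, 372 and 394 in pgEpiSCs-high, 105 and 124 in pgEpiSCs-MPCs, 527, 562 and 604 in pgEpiSCs-MCs and 649, 659.8 and 713 in MPC-Dif. All 5 groups were separate. PSAT1 was 1.88 times as high in pgEpiSCs-high as in pgEpiSCs-Low (log2 0.91, SE 0.077, adjusted p = 2.09e-06), fell by 1.26 into pgEpiSCs-MPCs (SE 0.077) and rose by 2.30 into pgEpiSCs-MCs (SE 0.086, adjusted p = 2.26e-11). Its rise over pgEpiSCs was 1.03 (SE 0.067) in pgEpiSCs-MCs and 1.29 (SE 0.067) in MPC-Dif. Taken against pgEpiSCs-high alone the rise in pgEpiSCs-MCs was 0.58, and against pgEpiSCs-Low alone 1.49, both called.

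PHGDH, the dehydrogenase that commits 3-phosphoglycerate to serine, was the steadiest of the 10 genes. It lies at chr4:101445977-101478144 on the minus strand. PHGDH read 140.1, 168 and 173 TPM in pgEpiSCs-Low, 208, 221 and 229.5 in pgEpiSCs-high, 147 and 153 in pgEpiSCs-MPCs, 147, 155 and 167 in pgEpiSCs-MCs and 252, 265 and 266 in MPC-Dif. The pgEpiSCs-Low, pgEpiSCs-MPCs and pgEpiSCs-MCs libraries overlapped, and pgEpiSCs-high and MPC-Dif lay above them. The difference between pgEpiSCs-MCs and pgEpiSCs-MPCs was 0.06 (SE 0.083, adjusted p = 0.535), and -0.10 without the mitochondrial genes. PHGDH was lower in pgEpiSCs-MPCs (-0.32, SE 0.074) and pgEpiSCs-MCs (-0.26, SE 0.065) than in both pgEpiSCs cultures combined, and neither call held against pgEpiSCs-Low alone (-0.09, adjusted p = 0.354, and -0.03, adjusted p = 0.709).

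SHMT2, the mitochondrial enzyme that splits serine, had its own order. The gene lies at chr5:22535780-22540322 on the plus strand. SHMT2 read 94.5, 103 and 109 TPM in pgEpiSCs-Low, 121, 123 and 127 in pgEpiSCs-high, 54.1 and 57.2 in pgEpiSCs-MPCs, 72.0, 79.9 and 81.6 in pgEpiSCs-MCs and 191, 191 and 197 in MPC-Dif. The 5 groups were separate, with the differentiated pgEpiSCs lineage below the undifferentiated cells and MPC-Dif above them. SHMT2 fell by 1.00 into pgEpiSCs-MPCs (SE 0.061, adjusted p = 3.22e-09) and was 1.30 lower on the log2 scale in pgEpiSCs-MCs than in MPC-Dif (SE 0.061, adjusted p = 7.69e-11). In the RefSeq annotation SHMT2 shares chr5:22535780-22536614 with NXPH4, a gene on the same strand. NXPH4 was at 22.6, 28.7 and 32.9 TPM in pgEpiSCs-MCs and at most at 3.40 TPM elsewhere, so the SHMT2 level in pgEpiSCs-MCs is uncertain by the reads that could not be assigned to either gene.

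Seen as a route, serine synthesis changed unequally from step to step. PSPH, the phosphatase of the last step, read 25.9, 27.7 and 28.3 TPM in pgEpiSCs-Low, 33.0, 36.8 and 37.6 in pgEpiSCs-high, 25.2 and 25.2 in pgEpiSCs-MPCs, 39.0, 40.7 and 43.1 in pgEpiSCs-MCs and 38.0, 42.3 and 43.1 in MPC-Dif. PSPH had the same order of group means as PSAT1 in a narrower range, though its pgEpiSCs-MCs and MPC-Dif libraries overlapped, with log2 changes of -0.30 for pgEpiSCs-MPCs, 0.38 for pgEpiSCs-MCs and 0.38 for MPC-Dif against pgEpiSCs, all called. The calls of its rise depended on scaling, with 0.08 (adjusted p = 0.246) in pgEpiSCs-MCs after quantile normalization, and 0.10 (adjusted p = 0.113) there and 0.12 (adjusted p = 0.0686) in MPC-Dif without the mitochondrial genes. SHMT1, the cytosolic counterpart of SHMT2, read 23.7, 26.9 and 30.5 TPM in pgEpiSCs-Low, 16.2 ± 4.54 (SD, n = 3) in pgEpiSCs-high, 6.85 and 8.06 in pgEpiSCs-MPCs, 2.03, 2.32 and 2.97 in pgEpiSCs-MCs and 3.79, 4.63 and 5.97 in MPC-Dif. It was lower in all differentiated groups and lowest in pgEpiSCs-MCs, where it fell by 2.66 (SE 0.17). Of a list of 10 genes for serine and glycine enzymes other than the 10 genes described, 8 were tested. In pgEpiSCs-MCs 2 were higher and 6 lower than in pgEpiSCs, beside 50.8% and 30.9% of all genes, with a median of -0.85 against 0.27. The 2 that rose were PSPH and SARS1, which charges serine onto its tRNA (0.16), and SARS1 was not called higher after median-of-ratios scaling or quantile normalization and was called lower without the mitochondrial genes (-0.12, adjusted p = 0.0385). GLDC, the glycine-cleaving decarboxylase, was lower in pgEpiSCs-MCs (-1.30) and MPC-Dif (-3.83).

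The folate genes that carry the one-carbon unit onward showed no common direction. Of 12 genes, 11 were tested, and 4 were higher and 5 lower than in pgEpiSCs in both muscle cell groups, beside 50.8% of all genes higher and 30.9% lower in pgEpiSCs-MCs and 37.4% and 44.1% in MPC-Dif. Other scalings moved these counts, to 3 higher and 7 lower in pgEpiSCs-MCs after quantile normalization, and in MPC-Dif to 5 and 5 after median-of-ratios scaling and 2 and 6 without the mitochondrial genes. MTHFD2, the mitochondrial folate enzyme next to SHMT2 and itself a target of ATF4, did not pass in either, with -0.04 and 0.06. Under the other scalings MTHFD2 was called lower in pgEpiSCs-MCs (-0.27, -0.30 and -0.31), while in MPC-Dif it was called higher after median-of-ratios scaling (0.18) and lower without the mitochondrial genes (-0.20). ALDH1L2, a mitochondrial folate dehydrogenase, had the largest rise of this list, 2.51 (SE 0.11) in pgEpiSCs-MCs and 5.55 (SE 0.11) in MPC-Dif. Its means were 7.59 TPM in pgEpiSCs-Low and 412 TPM in MPC-Dif. MTHFD1, the cytosolic folate enzyme, was lower in both (-1.54 and -1.59).

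**Figure D3:**
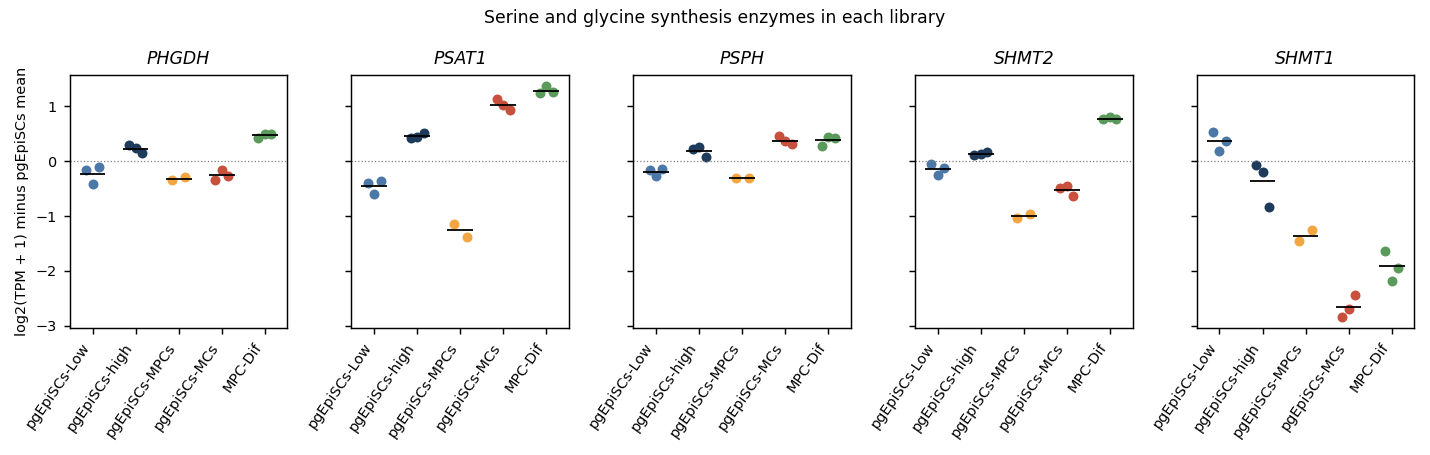
Levels of PHGDH, PSAT1 and PSPH, the enzymes of serine synthesis in order, and of SHMT2 and SHMT1, which split serine in mitochondria and cytosol, as log2(TPM + 1) minus the pgEpiSCs mean; each point is a library and each line the mean of its group. PSAT1 and PSPH stand above 0 in pgEpiSCs-MCs and MPC-Dif, PHGDH and SHMT2 above 0 in MPC-Dif and below 0 in pgEpiSCs-MCs, and SHMT1 below 0 in both.

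Ratios of TPM between 2 genes of the same library do not change when a library is scaled by 1 factor, though quantile normalization would change them. Here 2 pairs, chosen after their values were seen, show the uneven changes. Other pairs computed, DDIT3 to ATF4 and TRIB3 to DDIT3, had ranges that overlapped between some groups. For DDIT3 to ATF4 the range was 0.0879 to 0.09998 in pgEpiSCs-MCs and 0.0805 to 0.0961 in MPC-Dif. For TRIB3 to DDIT3 it was 2.36 to 6.66 in pgEpiSCs-Low and 2.11 to 15.1 in pgEpiSCs-high. The ratio of ASNS to PSAT1 was 0.867 to 1.04 in pgEpiSCs-Low, 0.723 to 0.840 in pgEpiSCs-high, 0.415 to 0.479 in pgEpiSCs-MPCs, 0.352 to 0.385 in MPC-Dif and 0.207 to 0.220 in pgEpiSCs-MCs. The 5 ranges did not overlap. The ratio of PSAT1 to PHGDH was 0.685 to 0.843 in pgEpiSCs-MPCs, 1.23 to 1.29 in pgEpiSCs-Low, 1.60 to 1.89 in pgEpiSCs-high, 2.49 to 2.68 in MPC-Dif and 3.36 to 4.11 in pgEpiSCs-MCs, again with no overlap. These ratios are descriptions and were not tested.

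The first comparison asked what differed between the high-passage and the low-passage culture of undifferentiated pgEpiSCs. In pgEpiSCs-high 7 of the 10 genes were higher (DDIT4, TRIB3, CHAC1, ASNS, PSAT1, PHGDH and SHMT2) and 0 lower, beside 8.36% of all 14957 genes tested that were higher and 15.7% that were lower. The median log2 change of the 10 genes was 0.47, against -0.04 over all genes. The 3 that did not pass were ATF4 (-0.07, SE 0.053), DDIT3 (0.24, SE 0.27) and SESN2 (0.17, SE 0.082), so the ATF4 mRNA was not among those that rose. ASNS rose by 0.68 (SE 0.063, adjusted p = 5.24e-06) and CHAC1 by 0.76 (SE 0.14, adjusted p = 0.00153). TRIB3, at 0.48 (SE 0.12, adjusted p = 0.0128), lost its call when only these 2 groups were fitted (adjusted p = 0.109) and without pgEpiSCs-Low replicate 2 (adjusted p = 0.0518), and SESN2 gained one after median-of-ratios scaling (adjusted p = 0.032), after quantile normalization (0.0369) and without pgEpiSCs-Low replicate 3 (0.0406). Of 26 other targets of ATF4 tested, 10 were higher and 1 lower, among them the hormone STC2 (0.93) and the cystine transporter SLC7A11 (0.84). Of 7 other transcription factors that act with ATF4 tested, 2 were higher, CEBPG (0.22) and NFE2L2 (0.18), and 1, ATF3 (-0.64), was lower. PPP1R15A (-0.71), also a gene of the response, was lower too. The mitochondrial share was 19.8 to 23.3% in pgEpiSCs-Low and 22.7 to 24.9% in pgEpiSCs-high, and 65.2% of all calls were lower, which became 46.1% after median-of-ratios scaling and 48.2% after quantile normalization, with 8 of the 10 genes higher and 0 lower under both.

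The next comparison asked what changed as pgEpiSCs became pgEpiSCs-MPCs. Here 7 of the 10 genes fell and 2, ATF4 and DDIT3, rose, beside 21.4% of all genes lower and 47.5% higher. The median of the 10 genes was -0.90, against 0.24 over all genes. Other targets of ATF4 fell too, 18 of 26 lower and 5 higher, with a median of -0.46. The largest falls among them were in EIF4EBP1, an inhibitor of translation initiation (-2.49), SLC7A3, a transporter of cationic amino acids (-2.20), and SLC3A2, the shared heavy chain of amino acid transporters (-2.11). SLC7A5, the leucine transporter that pairs with SLC3A2, had -2.01, and NUPR1, a stress-induced chromatin protein, had -2.76. NUPR1 is among the 7 other factors tested that act with ATF4, of which 2 were higher and 2 lower. In contrast, 12 of 14 tested genes of endoplasmic reticulum stress were higher and 0 lower, with a median of 0.78, led by the stress sensor ATF6 (1.72). These counts were 8 and 2 after median-of-ratios scaling and 10 and 2 after quantile normalization. After median-of-ratios scaling or quantile normalization 49.4% and 53.6% of all calls were lower in place of 31.0%, and 8 of the 10 genes were then lower, SESN2 being added (adjusted p = 0.000981 and 0.000177). With pgEpiSCs-Low alone as the control 5 were lower.

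From pgEpiSCs-MPCs to pgEpiSCs-MCs 9 of the 10 genes rose and 0 fell, beside 34.5% of all genes higher and 36.1% lower, and only PHGDH did not pass. The median of the 10 genes was 1.76, against -0.01 over all genes. TRIB3, DDIT4, CHAC1 and DDIT3 led with log2 changes of 4.27, 4.22, 3.53 and 2.77. The same was seen in the other factors that act with ATF4, all 7 of 7 tested being higher (6 without the mitochondrial genes) with a median of 1.69, led by NUPR1 (4.84) and JDP2, a partner of other leucine-zipper factors (2.41). Among other targets 18 of 26 were higher and 6 lower, with EIF4EBP1 (3.30), STC2 (2.78), SLC7A11 (2.72) and SLC7A5 (2.72) among the largest rises, and SLC7A3 (-1.82) and CTH, which makes cysteine (-1.21), among the falls. SESN2 (0.36, SE 0.092, adjusted p = 0.00326) lost its call without the mitochondrial genes (adjusted p = 0.053). This comparison rests on 2 pgEpiSCs-MPCs libraries.

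Compared with pgEpiSCs, 7 of the 10 genes were higher and 3 lower in pgEpiSCs-MCs, beside 50.8% of all genes higher and 30.9% lower, so that most genes of the table differed here. The higher ones were ATF4, DDIT3, DDIT4, TRIB3, CHAC1, PSAT1 and SESN2, and the lower ones ASNS, PHGDH and SHMT2. The median of the 10 genes was 1.04, against 0.27 over all genes. Of 26 other targets 16 were higher and 7 lower, with the E3 ligase adaptor KLHL24 (2.96) and STC2 (2.51) at the top and SLC7A3 (-4.01) and CTH (-1.67) at the bottom, and with 14 or 15 higher and 9 lower under the other scalings. In the list of endoplasmic reticulum stress 12 of 14 genes were higher and 1 lower, with a median of 1.20, led by HERPUD1, a component of protein degradation at the endoplasmic reticulum (2.52), and EDEM1, which also acts in that degradation (2.51). After quantile normalization 55.9% of all calls were lower in place of 37.8%, and the 10 genes then counted 6 higher and 3 lower, SESN2 being lost.

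MPC-Dif, the cells differentiated from muscle stem cells, was compared with the same pgEpiSCs libraries, so this comparison shares its controls with those of pgEpiSCs-MPCs and pgEpiSCs-MCs. In MPC-Dif 8 of the 10 genes were higher and 1, DDIT4, lower, beside 37.4% of all genes higher and 44.1% lower, with a median of 1.01 against -0.10. DDIT3 (4.08), TRIB3 (3.85) and ATF4 (1.42) had the largest changes, and PHGDH (0.48, SE 0.065) and SHMT2 (0.78, SE 0.052) rose here, where they were lower in pgEpiSCs-MCs. DDIT4 (-0.35, SE 0.11, adjusted p = 0.00918) lost its call after median-of-ratios scaling (adjusted p = 0.0569) and was 0.25 against pgEpiSCs-Low alone (adjusted p = 0.0898). All 7 other factors tested were higher, with a median of 2.88, and NUPR1 reached 2656, 2672 and 2984 TPM. The hormone GDF15, a secreted signal of cell stress, had the largest rise of the other targets (6.16, SE 0.17), from means of 1.19 and 0.532 TPM in the pgEpiSCs cultures to 129 TPM. Its mean in pgEpiSCs-MCs was 2.39 TPM. Over the whole list of other targets 12 of 26 were higher and 10 lower, the lowest being SLC7A3 (-7.59), and 10 were higher and 12 lower without the mitochondrial genes.

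Finally, pgEpiSCs-MCs and MPC-Dif, the muscle cells of both origins, were compared directly. In pgEpiSCs-MCs 1 of the 10 genes, DDIT4, was higher and 7 were lower, beside 50.0% of all genes higher and 29.1% lower, with a median of -0.50 against 0.29. The 7 were ATF4 (-0.22), TRIB3 (-1.23), ASNS (-1.05), PSAT1 (-0.26), PHGDH (-0.73), SHMT2 (-1.30) and SESN2 (-0.94), and these 7 kept that direction and their call in each of 24 alternatives run. DDIT3 (-0.06, SE 0.27) and CHAC1 (0.27, SE 0.14) did not pass. All 7 other factors that act with ATF4 were lower as well, with a median of -0.84, while targets split evenly, 12 of 26 higher and 12 lower, or 10 and 15 after median-of-ratios scaling. SLC7A3 (3.58), SLC7A5 (2.73) and the hormone FGF21 (2.33) were higher in pgEpiSCs-MCs, and GDF15 (-5.30) and SLC1A5, a glutamine and serine transporter (-1.97), were lower. The mitochondrial share was alike in these groups. Of all calls 36.8% were lower, and 49.5% and 54.2% after median-of-ratios scaling and quantile normalization.

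**Figure D4:**
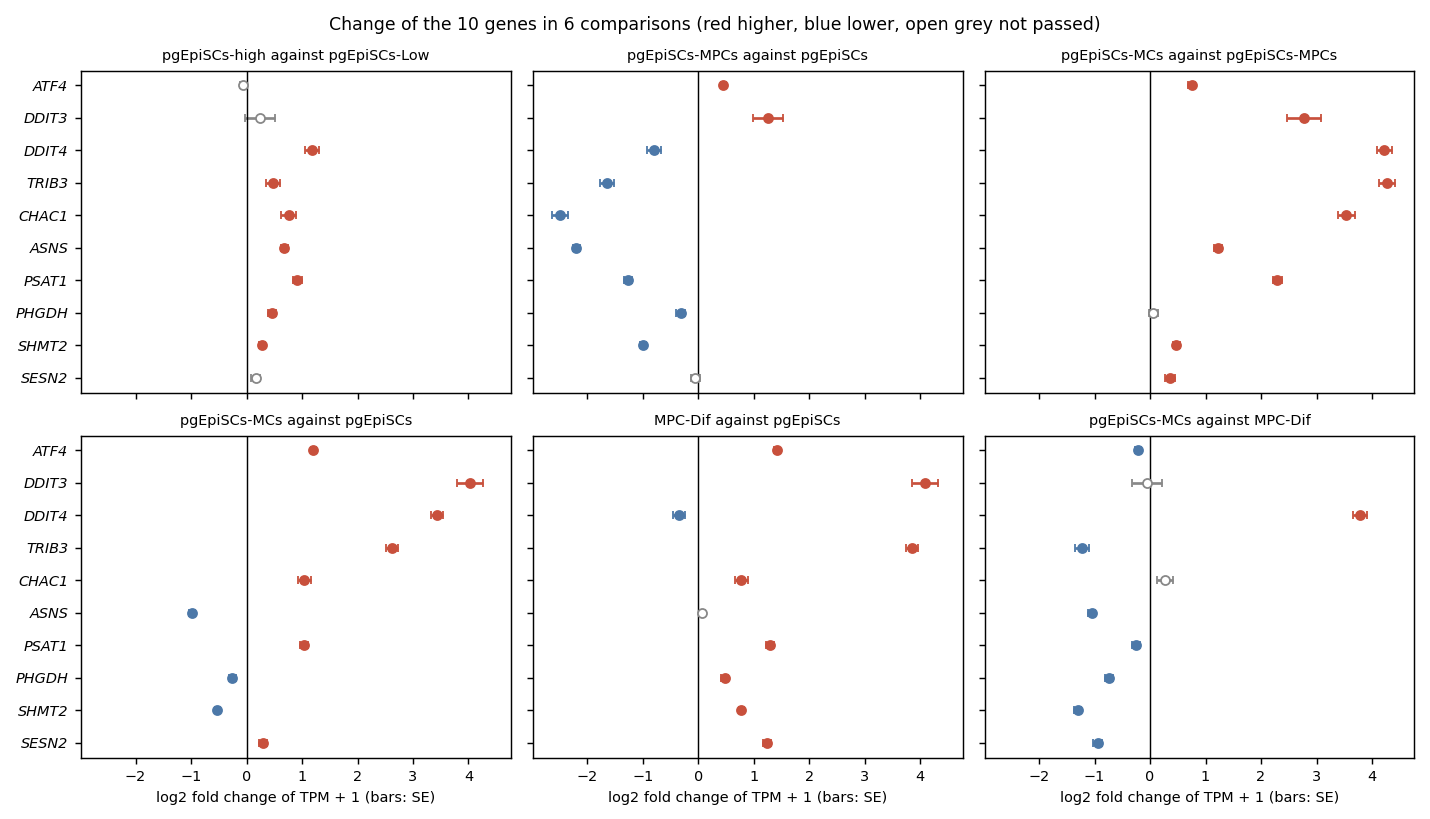
log2 fold change of TPM + 1 of the 10 genes in each of the 6 comparisons (points, with bars of 1 standard error); red marks genes called higher, blue genes called lower and open grey points those that did not pass an adjusted p of 0.05. DDIT4 is the single red point in the comparison of pgEpiSCs-MCs with MPC-Dif, and in the comparison of pgEpiSCs-MPCs with pgEpiSCs the points of ATF4 and DDIT3 lie to the right of 0 and those of 7 other genes to the left.

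As a description, the genes most like each of the 10 were listed by Pearson correlation of log2(TPM + 1) over the 14 libraries, which mostly follows the 5 group means because libraries of a group share their source. TRIM16, TIMP3 and ULK2 were most like ATF4, with r of 0.997, 0.996 and 0.995, and PARP3, MTURN and ELN most like DDIT3, with r of 0.989, 0.987 and 0.986. The desaturase SCD was most like DDIT4 (r = 0.989), P4HA2 most like TRIB3 (0.994) and PPP1R3B most like CHAC1 (0.981). For the amino acid enzymes the closest genes were LPCAT3 and the isoleucyl-tRNA synthetase IARS1 for ASNS (0.982 and 0.976), HSD17B7 of cholesterol synthesis for PSAT1 (0.980), ACAT1 for PHGDH (0.949) and HERC6 for SHMT2 (0.995), with the alanyl-tRNA synthetase AARS1 as the third closest to SHMT2 (0.987). WARS1, the tryptophanyl-tRNA synthetase and itself in the list of other ATF4 targets, was closest to SESN2 (0.985). PHGDH had the lowest likeness to its closest gene and ATF4 the highest.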

How the data were processed

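Poly-A RNA of 14 libraries in 5 groups was sequenced. The authors trimmed reads with Trim Galore, aligned them with HISAT2 to Sscrofa11.1, counted reads over exons with featureCounts and deposited TPM computed in R, and the annotation and the strand setting are not given in the sources used here. The 13 mitochondrial genes are part of the table. TPM totals were 999731 to 999880 per library. TPM keeps no depth, so no counting interval or floor is given.

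Groups were taken from the labels. A linear model with 1 mean per group was fitted to log2(TPM + 1) over all 14 libraries with limma 3.58.1 in R 4.3.3, with an intensity trend, for the 14957 genes whose TPM passed 0.5 in 50% or more of a group's libraries. Benjamini-Hochberg adjustment ran over all of these, with calls at an adjusted p under 0.05. Whether the libraries of a group stem from separate cultures is not in the labels, so p-values measure their spread only, which may be technical. The test was checked on simulated data. All 10 genes are named with every library's value. From each list at most 3 called genes with the largest changes per comparison are named, plus those a sentence turns on, and for likeness the 3 genes of highest correlation were listed for each of the 10. The 10 genes and all lists were chosen with earlier results of these data known. Alternatives changed the pseudocount (0.1, 0.5), the filter (none, TPM above 2), the scaling, the trend, the fitted samples, the replicate block, the control culture and each library in turn. The authors' count-based DESeq2 analysis was not used here. Of 2209 genes named by Ensembl identifier, 608 were given a symbol from the reference. Promoter and overlap coordinates are RefSeq, Sscrofa11.1.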

Additional observations from a re-analysis of the deposited data

How the results depend on the processing

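Of 1500 values of the 10 genes recomputed under the alternatives, 1469 kept their direction and side of the threshold and 13 changed sign. Among the rest, which kept their direction, 9 lost their call and 9 gained one. Some of the 13 also lost or gained a call, as given below. The counts of the 10 genes called ranged from 6 to 8 higher in pgEpiSCs-high against pgEpiSCs-Low, from 5 to 8 lower in pgEpiSCs-MPCs against pgEpiSCs with 2 higher throughout, from 8 to 9 higher in pgEpiSCs-MCs against pgEpiSCs-MPCs, and from 6 to 7 higher and 2 to 3 lower in pgEpiSCs-MCs against pgEpiSCs. In MPC-Dif against pgEpiSCs 8 to 9 were higher, and the number lower was 1 as reported, 0 after median-of-ratios scaling and against pgEpiSCs-Low alone, and 2 without the mitochondrial genes and against pgEpiSCs-high alone. In pgEpiSCs-MCs against MPC-Dif 7 were lower throughout, and 2 rather than 1 were higher when only these groups were fitted, CHAC1 being added (adjusted p = 0.037). That setting, which has fewer samples, also cut all genes called between pgEpiSCs-high and pgEpiSCs-Low from 3595 to 1941.

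The changes of sign were in values that did not pass as reported, except SESN2 in pgEpiSCs-MCs and DDIT4 in MPC-Dif against pgEpiSCs. Both were called as reported and not called where the sign changed. ASNS in MPC-Dif against pgEpiSCs did not pass as reported. It was called lower without the mitochondrial genes (adjusted p = 0.00293) and against pgEpiSCs-high alone (adjusted p = 0.00138). Median-of-ratios scaling gave 0.0115 for ATF4 in pgEpiSCs-high against pgEpiSCs-Low and -0.0842 for CHAC1 in pgEpiSCs-MCs against MPC-Dif. Quantile normalization gave -0.0051 for SESN2 in pgEpiSCs-MCs against pgEpiSCs and -0.0499 for ASNS in MPC-Dif against pgEpiSCs. Without the mitochondrial genes PHGDH was -0.10 in pgEpiSCs-MCs against pgEpiSCs-MPCs and ASNS -0.20 in MPC-Dif. Against pgEpiSCs-Low alone SESN2 was 0.0296 in pgEpiSCs-MPCs and DDIT4 0.25 in MPC-Dif, and against pgEpiSCs-high alone ASNS was -0.27 in MPC-Dif. With each library left out in turn, DDIT3 ranged from -0.0456 to 0.60 in pgEpiSCs-high against pgEpiSCs-Low and from -0.11 to 0.04 in pgEpiSCs-MCs against MPC-Dif, and SESN2 from -0.12 to 0.0107 in pgEpiSCs-MPCs against pgEpiSCs, none of them called. The cause of these changes was not tested.

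Libraries with the same replicate number did not visibly deviate together, with correlations from -0.15 to 0.13 over 26 pairs and from -0.15 to 0.18 over 52 pairs of unlike number. With 2 or 3 libraries per group a weak pairing could be missed, so whether the numbers pair samples is not settled. With the replicate block each count of the 10 genes stayed as reported (7, 2, 9, 7, 8 and 1 higher and 0, 7, 0, 3, 1 and 7 lower in the order of the report), and all genes called numbered 3221, 10073, 10373, 12145, 12142 and 11744. The median of all genes moved by more than 0.1 with scaling, from 0.24 to 0.00 in pgEpiSCs-MPCs after median-of-ratios scaling and from 0.27 to -0.13 in pgEpiSCs-MCs after quantile normalization, so changes of that size in single genes depend on it. TRIB3 and DDIT3 are low in some groups, where the pseudocount sets the size of the change. Precision is limited by 2 or 3 libraries per group, and depth is unknown.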

Other observations

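Genes downstream of DDIT4 and SESN2 and targets of p53, the tumour suppressor that also induces SESN2, give further context. The list of TSC and GATOR genes covers these complexes and mTORC1, through which DDIT4 and SESN2 act. It also holds SESN1 and SESN3, of the same family as SESN2. Of its 16 tested genes 6 were higher and 5 lower in pgEpiSCs-MCs than in pgEpiSCs, and 7 higher and 6 lower in MPC-Dif. Their medians were 0.04 and 0.03 against 0.27 and -0.10 over all genes. Of all genes 50.8% were higher and 30.9% lower in pgEpiSCs-MCs, and 37.4% and 44.1% in MPC-Dif. In pgEpiSCs-MCs the balance turned under other scalings, to 6 higher and 8 lower after median-of-ratios scaling, 6 and 9 after quantile normalization and 5 and 8 without the mitochondrial genes, with medians of -0.18, -0.34 and -0.23. SESN3, a relative of SESN2, had 3.56 in pgEpiSCs-MCs and -0.09 in MPC-Dif, where it did not pass, and DEPTOR, an inhibitor of mTOR, had 1.86 and 2.44. SESN1, the third member of that family, fell by 0.22 in pgEpiSCs-MCs and rose by 0.48 in MPC-Dif.

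Of 12 tested p53 targets, 9 were higher and 3 lower in pgEpiSCs-MCs than in pgEpiSCs, and 11 higher and 1 lower in MPC-Dif, with medians of 1.23 and 1.94 against 0.27 and -0.10 over all genes. The share lower in pgEpiSCs-MCs was near the 30.9% of all genes, of which 50.8% were higher there. In MPC-Dif 37.4% of all genes were higher and 44.1% lower. GADD45A, a growth-arrest gene, rose by 5.09 in pgEpiSCs-MCs, and CDKN1A, the cell cycle inhibitor p21, had 4.39 and 5.73. PMAIP1, a pro-apoptotic gene that ATF4 is also known to induce, was lower in both, with -1.61 and -0.71, and higher in pgEpiSCs-high than in pgEpiSCs-Low, with 1.35. In pgEpiSCs-MPCs PMAIP1 fell by 2.45, as did TRIB3, CHAC1 and ASNS by their own amounts. Of the 12 p53 targets 9 were higher there, beside 47.5% of all genes.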
